A study of Drosophila melanogaster with 12 samples.

Results

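Genes of the Draper engulfment pathway, with which glia take up neuronal debris, were examined in glial nuclei of wild-type, *nonstop* and *sgf11* larvae. The members were 8 genes chosen by FlyBase symbol, namely the receptor gene *drpr* and the genes *ced-6*, *Shark*, *Src42A*, *mbc*, *Ced-12*, *crq* and *NimC4*. Of these, 7 were matched to an identifier among the 15682 genes counted. The current identifier of *Src42A*, a Src family kinase gene, was not among those counted, and the gene was not analysed here. Its reads may stand under an older identifier. Of the 7, 6 had over 1 CPM (read counts scaled to library size) in at least 4 of the 12 libraries and were tested with 9966 genes in all. *NimC4* did not pass this filter and is given by its counts.

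The study asked which genes of glia depend on the histone H2B deubiquitinase module of the SAGA coactivator, whose subunits include Nonstop and Sgf11. Nuclear RNA was sequenced from GFP-tagged glial nuclei of the central nervous system and eye-antennal discs of larvae at the wandering stage, with 4 libraries per genotype, each from the dissected tissue of many larvae. By the study's methods, all genotypes carried *repo*-Gal4, a driver for glia, and UAS-GFP-Msp300KASH, which tags the nuclear envelope, both in a *w* background. Nuclei were labeled only where *repo*-Gal4 was active, and neuronal markers were still detected. *nonstop* larvae were homozygous for the P-element allele *not02069* with *ry506*, and *sgf11* larvae for the PBac insertion *e01308* in *CG13379*. Wild-type larvae carried the chromosome with both transgenes over the balancer TM3, marked with *Sb1*. The mutations were present in the whole animal and not in glia alone. Any difference in strain from the wild type cannot be told apart from the mutations themselves. The libraries held 6913032 to 11459317 counts in genes, so that 1 CPM corresponded to 6.91 to 11.5 reads.

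Draper is a transmembrane receptor that recognizes degenerating axons and dying cells. In *Drosophila* glia, Src42A phosphorylates its intracellular tail, which recruits the tyrosine kinase Shark, while the adaptor Ced-6 binds the tail through its phosphotyrosine binding domain. Engulfment then needs actin remodeling through the Rac GTPases, which the exchange factor Mbc and its partner Ced-12 activate together. The CD36-type receptor Croquemort (*crq*) and the Nimrod receptor NimC4, also named SIMU, act in the clearance of apoptotic cells and are best known from macrophages and, for NimC4, also from embryonic glia.

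*Ced-12* and *crq* were downregulated in both mutants. *drpr* and *mbc* passed the test in *nonstop* but not in *sgf11*, and *ced-6* and *Shark* in *sgf11* but not in *nonstop*. In the direct test between the mutants 0 of 6 passed, against 2.11% of all genes tested (0.823% higher and 1.28% lower in *nonstop*), and 1 of 6 had an unadjusted p under 0.05. By the exact test of edgeR and by DESeq2 0 of 6 passed as well. Against wild type, 4 of 6 were downregulated in *nonstop*, against 17% of all genes tested, 4 of 6 in *sgf11*, against 14.1%, and 2 of 6 in both, against 11.8%, where a gene was called if its false discovery rate (FDR) in the quasi-likelihood test of edgeR was below 0.01. No member was upregulated. The median log2 fold change of the 6 genes was -0.41 in *nonstop* and -0.49 in *sgf11*, against 0.01 and 0.02 over all genes tested. The wild-type libraries serve in both comparisons, so these are not independent of each other. In a bulk sample, fewer cells of a type and less RNA per cell cannot be told apart.

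**Figure D1:**
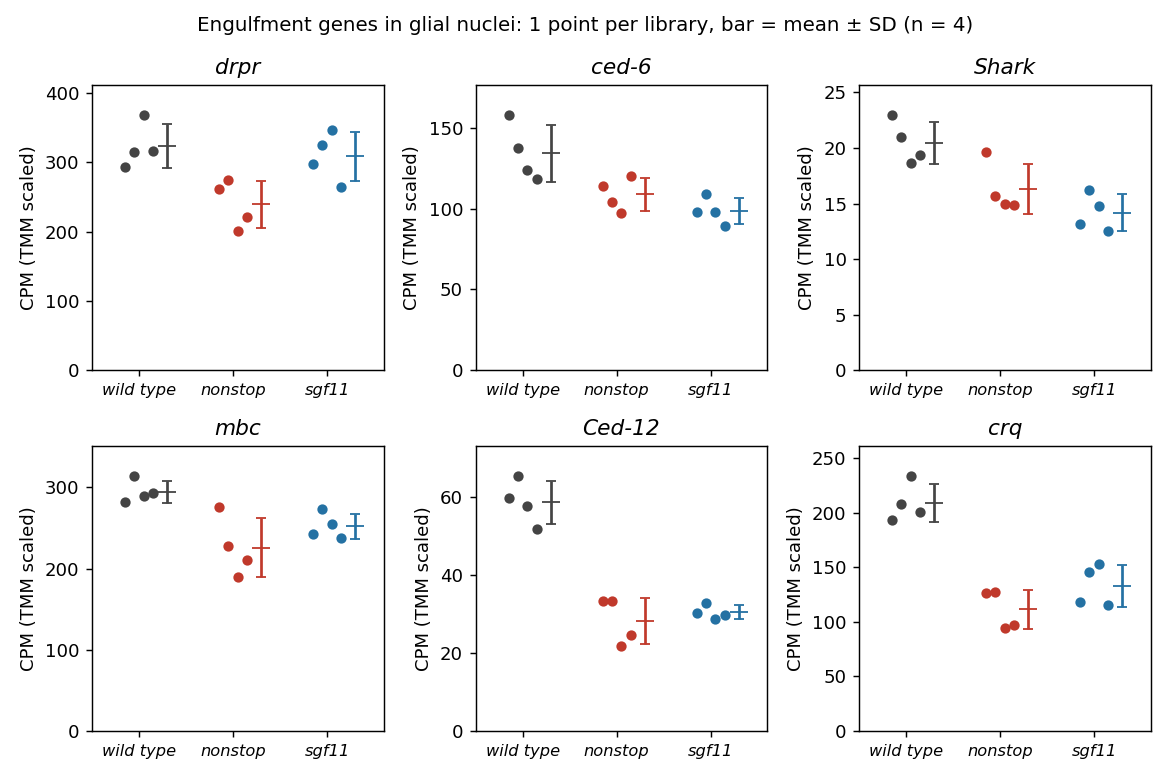
CPM on TMM-scaled library sizes (vertical axis) of the 6 tested engulfment genes in the 3 genotypes, with 1 point per library in the order of replicate number and the mean ± SD (n = 4) beside it. *Ced-12* lies between 51.8 and 65.3 CPM in wild type and below 33.3 CPM in all 8 mutant libraries, whereas *drpr* in *sgf11* overlaps wild type.

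On the FPKM scale, which is CPM per kilobase of exon and allows levels to be compared between genes, *crq* and *drpr* were the most abundant of the 7 genes in wild-type glia. The level of *crq* was 73.2 ± 6.16 FPKM (SD, n = 4 libraries) and that of *drpr* 68.0 ± 6.63 FPKM, and their ranges overlapped. *ced-6* followed at 44.4 ± 5.81 FPKM and *mbc* at 39.5 ± 1.81 FPKM, whose ranges also overlapped. *Ced-12* was at 22.7 ± 2.15 FPKM, *Shark* at 6.44 ± 0.60 FPKM and *NimC4* at 0.115 ± 0.179 FPKM, each range apart from that of its neighbors. In *nonstop* and *sgf11* glia *drpr* stood first and *crq* second. In *sgf11* their ranges were apart, from 55.7 to 73.1 FPKM for *drpr* and from 40.4 to 53.6 FPKM for *crq*, while in *nonstop* they overlapped. The exon length used for FPKM includes bases shared with other genes, over which reads were left uncounted. These are 15.7% of the exon bases of *crq* and 2.42% of those of *drpr*. The FPKM of *crq* is thus the more understated, and whether the ranges of *crq* and *drpr* overlap in a genotype is not settled by these values.

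*drpr* (FBgn0027594, 3L:1715595-1731107, minus strand, BDGP6 annotation) encodes the receptor itself. It was at 293, 316, 368 and 317 CPM in the wild-type libraries, at 262, 274, 201 and 221 CPM in *nonstop* and at 298, 324, 348 and 265 CPM in *sgf11*, each in the order of replicate number. All *nonstop* libraries lay below all wild-type libraries, and the *sgf11* libraries overlapped them, with replicate 4 below the wild-type range. The log2 fold change was -0.43 in *nonstop* (SE 0.12, edgeR FDR = 0.00589), or 74.0% of the wild-type level, and -0.07 in *sgf11* (95% interval -0.32 to 0.18, FDR = 0.677). The difference between the mutants was -0.37 on the log2 scale (95% interval -0.62 to -0.12), lower in *nonstop*, edgeR FDR = 0.102, and so did not pass. The call in *nonstop* was near the threshold. It was lost (FDR 0.0106 to 0.022) when wild-type replicate 2, 3 or 4 or *nonstop* replicate 3 or 4 was left out. Counts are for the whole gene, which has 6 annotated transcripts, so Draper isoforms with different intracellular tails were not distinguished.

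*ced-6* (FBgn0029092, 2R:9434669-9444937) and *Shark* (FBgn0015295, 2R:16199426-16202884), both on the minus strand, act directly at the Draper tail. *ced-6* was at 158, 138, 124 and 118 CPM in wild type, at 114, 104, 97.5 and 120 CPM in *nonstop* and at 97.8, 109, 98.2 and 89.3 CPM in *sgf11*. All *sgf11* libraries lay below wild type, and 1 *nonstop* library, replicate 4, lay within the wild-type range. Log2 fold changes were -0.45 in *sgf11* (SE 0.11, edgeR FDR = 0.00271) and -0.30 in *nonstop* (SE 0.11, FDR = 0.0264). *Shark*, which encodes a kinase of the Syk family, was at 22.9, 21.0, 18.6 and 19.4 CPM in wild type, at 19.7, 15.7, 14.99 and 14.9 CPM in *nonstop* and at 13.2, 16.2, 14.8 and 12.5 CPM in *sgf11*. Here too the *sgf11* libraries were apart from wild type and the *nonstop* libraries overlapped it through replicate 1. Its log2 fold changes were -0.53 in *sgf11* (SE 0.13, FDR = 0.00328) and -0.33 in *nonstop* (SE 0.13, FDR = 0.0434). Between the mutants, the difference was 0.14 for *ced-6* (95% interval -0.08 to 0.37) and 0.20 for *Shark* (-0.08 to 0.49). In *sgf11*, the call of *ced-6* was lost without wild-type replicate 1 (FDR = 0.0117) or *sgf11* replicate 4 (FDR = 0.0111), and that of *Shark* without wild-type replicate 1 (FDR = 0.0116), *sgf11* replicate 1 (FDR = 0.0109) or *sgf11* replicate 4 (FDR = 0.0123).

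*mbc* (FBgn0015513, 3R:23781765-23801634, plus strand) encodes the homolog of DOCK180, the catalytic part of the Rac exchange factor. It was at 282, 314, 289 and 293 CPM in wild type, at 276, 227, 190 and 211 CPM in *nonstop* and at 243, 273, 254 and 237 CPM in *sgf11*. All 8 mutant libraries lay below all wild-type libraries, as was so for 15.3% of all genes tested, but the gap was small. The log2 fold change was -0.38 in *nonstop* (SE 0.11, edgeR FDR = 0.00729) and -0.23 in *sgf11* (SE 0.11, FDR = 0.0996). The call in *nonstop* held in only 4 of the 12 fits that left out 1 library. It was lost without any of the wild-type libraries, without *nonstop* replicate 2, 3 or 4 and without *sgf11* replicate 3 (FDR 0.0101 to 0.0278), and in a fit of only wild type and *nonstop* (FDR = 0.0135).

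*Ced-12* (FBgn0032409, 2L:12097838-12100839, plus strand) encodes the ELMO protein that forms the exchange factor with Mbc, and it changed the most of the members. It was at 59.7, 65.3, 57.6 and 51.8 CPM in wild type, at 33.2, 33.2, 21.9 and 24.7 CPM in *nonstop* and at 30.3, 32.9, 28.7 and 29.6 CPM in *sgf11*. The highest mutant library was thus well below the lowest wild-type library. The log2 fold change was -1.05 in *nonstop* (SE 0.13, edgeR FDR = 4.03e-06) and -0.95 in *sgf11* (SE 0.13, FDR = 1.6e-05), or 48.1% and 51.8% of the wild-type level. Of all genes tested, 3.98% were at or below this value in *nonstop*, and 4.07% were at or below that in *sgf11*. The mutants differed from each other by -0.11 on the log2 scale (95% interval -0.38 to 0.17). *Ced-12* was called in both mutants under every alternative and in all 12 fits that left out 1 library.

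**Figure D2:**
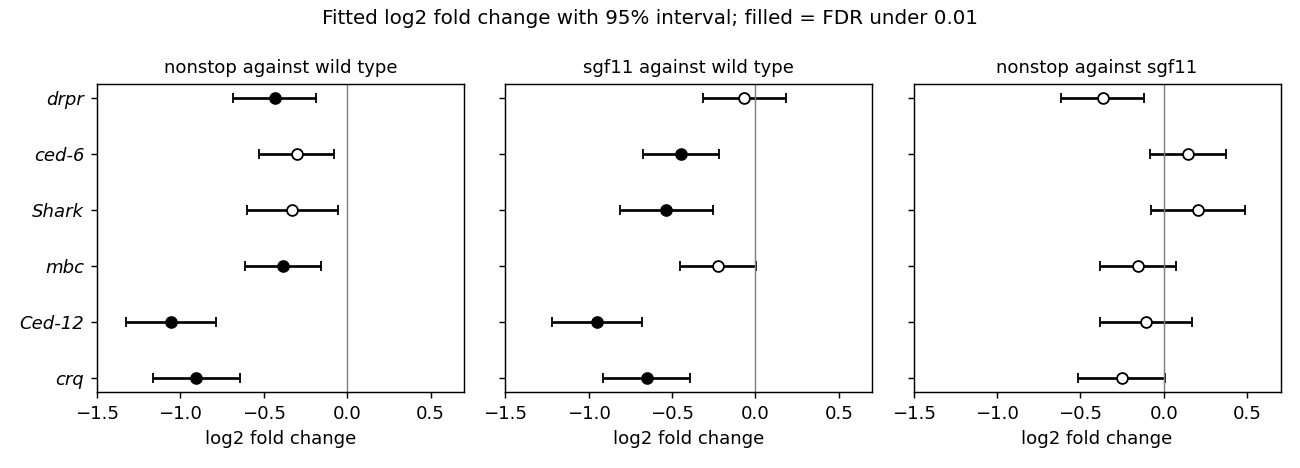
Fitted log2 fold changes (horizontal axis) with 95% intervals of the 6 tested genes in *nonstop* against wild type, *sgf11* against wild type and *nonstop* against *sgf11*, where filled points have an FDR below 0.01. *Ced-12* (-1.05 and -0.95) and *crq* (-0.91 and -0.65) are filled in both mutants and no gene is filled between the mutants.

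*crq* (FBgn0015924, 2L:448254-453024, minus strand) was the other member downregulated in both mutants. It was at 193, 208, 233 and 200 CPM in wild type, at 127, 127, 94.6 and 97.2 CPM in *nonstop* and at 118, 146, 153 and 115.1 CPM in *sgf11*. All mutant libraries lay below all wild-type libraries. The log2 fold change was -0.91 in *nonstop* (SE 0.12, edgeR FDR = 1.43e-05) and -0.65 in *sgf11* (SE 0.12, FDR = 0.000409), or 53.4% and 63.6% of the wild-type level. The call held in both mutants under every alternative and in all 12 fits that left out 1 library. The difference between the mutants was -0.25 (95% interval -0.51 to 0.01). In the annotation, 15.7% of the exon bases of *crq* also belong to *ex* on the other strand, and reads over these bases were left uncounted for both genes, since counting ignored strand. *ex* had log2 fold changes of 0.27 (FDR = 0.304) in *nonstop* and -0.09 (FDR = 0.76) in *sgf11*. The overlap with other genes was 4.09% of exon bases for *Shark*, 2.90% for *Ced-12*, 2.42% for *drpr* and none for the other members.

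*NimC4* (FBgn0260011, 2L:14047582-14048863, plus strand), the receptor SIMU, was barely detected. It had 0, 0, 5 and 1 counts in the wild-type libraries, 4, 1, 1 and 2 in *nonstop* and 1, 0, 0 and 5 in *sgf11*. The 6 counts over the wild-type group correspond to 0.156 CPM (95% Poisson interval 0.0573 to 0.34), the 8 in *nonstop* to 0.224 CPM (0.0966 to 0.441) and the 6 in *sgf11* to 0.19 CPM (0.0698 to 0.414). These intervals cover counting error only. A difference between genotypes was not detectable at this depth.

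Because 2 genes of the same library share its scaling, their ratio of read counts is the same under any factor applied to the whole library. For each *mbc* read, wild type held 0.199 ± 0.0154 *Ced-12* reads (SD, n = 4), with a ratio of 0.1248 ± 0.0143 in *nonstop* and 0.121 ± 0.0057 in *sgf11*. All mutant ratios (0.113 to 0.146) lay below all wild-type ratios (0.177 to 0.211). The ratio of *crq* to *drpr* reads was 0.646 ± 0.0143 in wild-type libraries, 0.465 ± 0.0185 in *nonstop* and 0.43 ± 0.023 in *sgf11*, again without overlap between wild type (0.633 to 0.659) and the mutants (0.396 to 0.484). In contrast, *drpr* and *mbc* kept a ratio of 1.10 ± 0.119 in wild type and 1.07 ± 0.106 in *nonstop*, with 1.22 ± 0.105 in *sgf11*, and all of these ranges overlapped. The ratio of *Shark* to *drpr* reads was 0.0641 ± 0.0114 in wild-type libraries, 0.0686 ± 0.0084 in *nonstop* and 0.046 ± 0.00329 in *sgf11*. The *sgf11* libraries lay below all others, but barely, with a highest ratio of 0.04998 against a lowest wild-type ratio of 0.05067. For *ced-6* to *drpr*, *sgf11* (0.2825 to 0.3372) and wild type (0.3363 to 0.5372) overlapped. These ratios were chosen with the levels known and are given without a test.

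**Figure D3:**
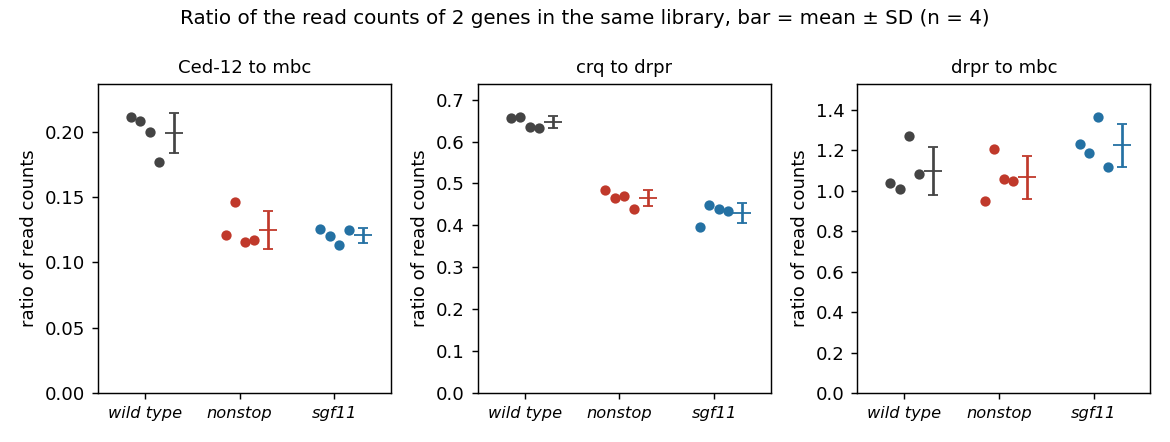
Ratio of the read counts of 2 genes within a library (vertical axis) for *Ced-12* to *mbc*, *crq* to *drpr* and *drpr* to *mbc*, with 1 point per library and the mean ± SD (n = 4). The first and second ratios are lower in all 8 mutant libraries than in wild type, with means of 0.199 and 0.646 in wild type, and the third overlaps between the genotypes.

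The number of members called depended on the scaling. With TMM factors computed only from abundant genes, namely the 3633 genes that still pass the filter once alignments not assigned to a gene count towards the totals, only *Ced-12* and *crq* were called, in both mutants. The median over all genes moved up by 0.15 on the log2 scale in *nonstop* and by 0.12 in *sgf11*, and the share of upregulated genes among those called went from 52.3% to 68.7% and from 53.8% to 69.2%. Among all 9966 genes tested, the number downregulated went from 1699 to 1086 in *nonstop* and from 1403 to 935 in *sgf11*. *drpr* then had log2 fold changes of -0.29 (FDR = 0.0253) and 0.05 (FDR = 0.702), *mbc* -0.24 (FDR = 0.0483) and -0.10, *ced-6* -0.15 and -0.33 (FDR = 0.0174), and *Shark* -0.18 and -0.41 (FDR = 0.0135). With library size alone as the scale, which lowered the median in *nonstop* by 0.13, all 6 were called in *nonstop*, 4 in *sgf11* and 4 in both. Of all genes tested, 2021 were then downregulated in *nonstop* and 1341 in *sgf11*. Among all genes called, 39.6% were upregulated in *nonstop* and 49.8% in *sgf11*.

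**Figure D4:**
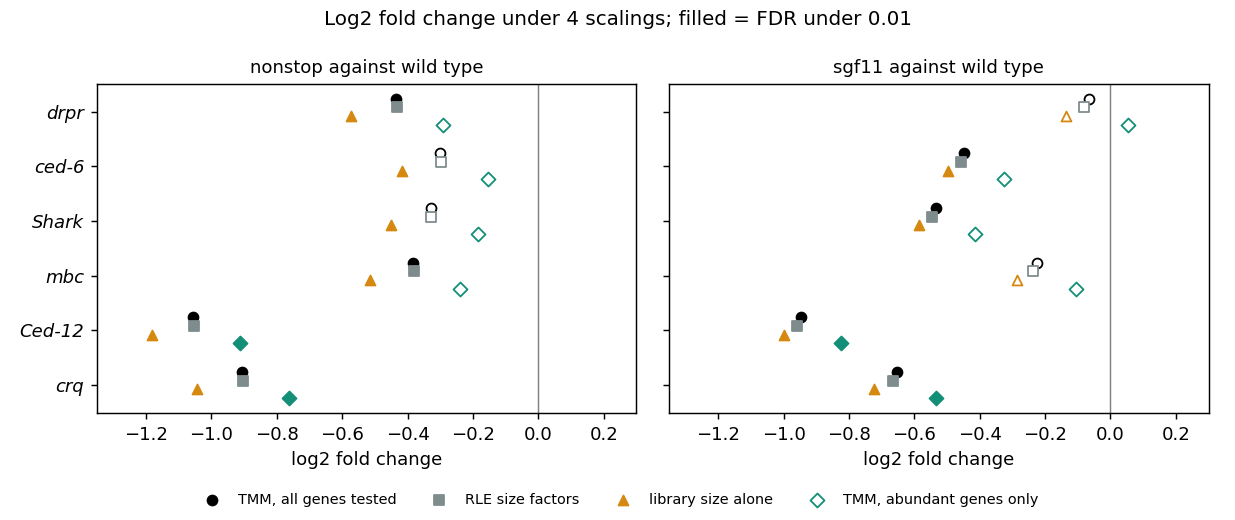
Log2 fold changes (horizontal axis) of the 6 tested genes under 4 scalings, where filled symbols have an edgeR FDR below 0.01. Under each scaling *Ced-12* and *crq* are filled in both mutants, and with TMM factors from abundant genes (diamonds) no other gene is.

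The members were also compared by their pattern over the 12 libraries. The root mean square (RMS) difference of log2 CPM, after each gene was centered on its own mean, was 0.12 between *ced-6* and *Shark*, which made *Shark* the 16th closest gene to *ced-6*. It was 0.15 between *drpr* and *mbc*, the 54th closest to *drpr*, and 0.184 between *Ced-12* and *crq*, the 112th closest to *Ced-12*. The other 12 pairs of members differed by 0.185 to 0.40. *Shark* and *mbc*, at 0.185, were thus about as close as *Ced-12* and *crq*. Of all genes tested, the 5 closest to *drpr* were *promL* (0.09), a prominin gene, *pins* (0.11), a gene of cell polarity, *Tmem131* (0.12), *Spt20* (0.12), which encodes a SAGA subunit, and *Cnx99A* (0.12), a calnexin gene. They had log2 fold changes between -0.49 and -0.41 in *nonstop*. The likeness is a description over the genotypes and libraries together.

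Markers of other cell types were measured in the same libraries. As a baseline for the calls below, 13.1% of all genes tested rose and 11.8% fell in both mutants. In *nonstop* 18.7% rose and 17% fell, and in *sgf11* 16.4% rose and 14.1% fell. *Hml*, a hemocyte marker, was at 28.6, 12.3, 33.7 and 27.9 CPM in wild type, at 21.9, 25.5, 55.0 and 32.7 CPM in *nonstop* and at 45.2, 33.9, 21.0 and 94.9 CPM in *sgf11*, and was not called. Over the 10 hemocyte markers listed, the summed level ranged from 312 to 439 CPM in wild type, from 343 to 531 CPM in *nonstop* and from 308 to 561 CPM in *sgf11*, which overlap. Of the 9 tested, *Ppn*, which encodes an extracellular matrix protein, was called, downward in both mutants, from a mean of 114 CPM to 33.9 and 46.9 CPM. The sum therefore mixes opposite moves. *Col4a1* went from 138 CPM to 228 and 245 CPM, though it was not called (edgeR FDR = 0.0182 and 0.0102). The median log2 fold change of the 9 markers was 0.32 in *nonstop* and 0.37 in *sgf11*. The hemocyte marker *He* had 11, 28 and 12 counts over the wild-type, *nonstop* and *sgf11* groups. The pan-glial gene *repo* averaged 147.9 CPM over the wild-type libraries and had log2 fold changes of -0.29 (edgeR FDR = 0.0709) and -0.23 (FDR = 0.15), and was called in *nonstop* with library size alone (-0.42, FDR = 0.00628). Of the 7 glial markers listed, *repo* among them, *moody* (-0.54, FDR = 0.00467) and *loco* (-0.40, FDR = 0.0033) fell and *nrv2* rose (0.61, FDR = 0.00725) in *nonstop*, and *Gs2* rose in *sgf11* (1.22, FDR = 0.00358), while *repo*, *Gli* and *Mdr65* were not called in either. With TMM factors from abundant genes *moody* (FDR = 0.0134) and *loco* (FDR = 0.0303) were not called in *nonstop*, nor was *nrv2* with library size alone (FDR = 0.0201). Of 4 markers of astrocyte-like glia, *alrm*, *Gat* and *Eaat1* rose in both mutants and *wun2* fell in *nonstop*. Their summed level was 908 to 1666 CPM in wild type, 1774 to 3568 CPM in *nonstop* and 2068 to 2991 CPM in *sgf11*. Both markers of ensheathing glia, *Eaat2* and *rumpel*, rose in both mutants, from a summed level of 27.6 to 50.0 CPM in wild type to 69.2 to 138 CPM in *nonstop* and 61.1 to 123 CPM in *sgf11*. Of 6 neuronal markers, *nSyb*, *Syt1*, *brp* and *Appl* rose in both. With library size alone, the calls of *Eaat1*, *Eaat2* and *nSyb* in *nonstop* and of *nSyb* and *brp* in *sgf11* were lost (FDR 0.0181 to 0.0955), with the direction kept. Of 4 neuroblast markers, *mira* fell in both mutants (-0.80 and -1.16) and *dpn* (-0.61) and *ase* (-0.61) in *sgf11*, and their summed level was 54.4 to 72.2 CPM in wild type, 43.0 to 45.5 CPM in *nonstop* and 29.9 to 41.9 CPM in *sgf11*. Of 4 fat body markers, *Fbp1* fell in both mutants (-4.27 and -2.36), and *Lsp2* (1.16) and *Lsp1beta* (1.24) rose in *sgf11* and differed between the mutants (FDR = 0.00322 and 0.00244). Their summed level was 46.3 to 105 CPM in wild type, 21.1 to 39.8 CPM in *nonstop* and 47.4 to 101.4 CPM in *sgf11*. None of 4 muscle and 4 eye disc markers tested was called. The muscle markers summed to 4.52 to 50.2 CPM in wild type, 11.1 to 18.9 CPM in *nonstop* and 12.2 to 16.8 CPM in *sgf11*, and those of the eye disc to 106 to 121 CPM, 85.5 to 112 CPM and 86.6 to 96.1 CPM. The part of these shifts in the levels of the engulfment genes was not tested.

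By chromosome arm, the share of genes downregulated in both mutants was 11.8% on 3L, where *drpr* and both mutated genes lie, 12.9% on 3R, where *mbc* lies, 11.9% on 2L, where *Ced-12* and *crq* lie, and 10.8% on 2R, where *ced-6* and *Shark* lie. On chromosome 4 it was 2.41%, and on the X 12.2%. The part of the balancer in the levels of *drpr* and *mbc* was not tested.

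Around these members, 75 other genes of engulfment were listed by role, of which 72 were matched to the counts and 68 were tested. In *nonstop*, 23 of the 68 (33.8%) were downregulated, against 17% of all genes, and 6 (8.82%) were upregulated, against 18.7%. In *sgf11*, 16 (23.5%) were downregulated, against 14.1%, and 5 (7.35%) were upregulated, against 16.4%. In both mutants 15 fell and 5 rose, or 22.1% and 7.35%, against 11.8% and 13.1%. With TMM factors from abundant genes, 18 fell and 7 rose in *nonstop* and 11 fell and 7 rose in *sgf11*. Of all 9966 genes tested, 3473 were then called in *nonstop*, 1086 of them downward, and 3035 in *sgf11*, 935 of them downward. With library size alone, 25 fell and 3 rose in *nonstop* and 17 fell and 3 rose in *sgf11*. Of all genes tested, 3347 were then called in *nonstop*, 2021 of them downward, and 2670 in *sgf11*, 1341 of them downward. The scaling by all tested genes gave 3561 calls in *nonstop*, 1699 downward, and 3037 in *sgf11*, 1403 downward. No called gene of the 68 turned its direction. The median log2 fold change over the 68 genes was -0.17 in *nonstop* and -0.14 in *sgf11*. The current identifiers of *InR*, *scb* and *Vps16A* were not among the genes counted, and *spz5*, *NimC3*, *ninaD* and *Snmp2* did not pass the filter.

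**Figure D5:**
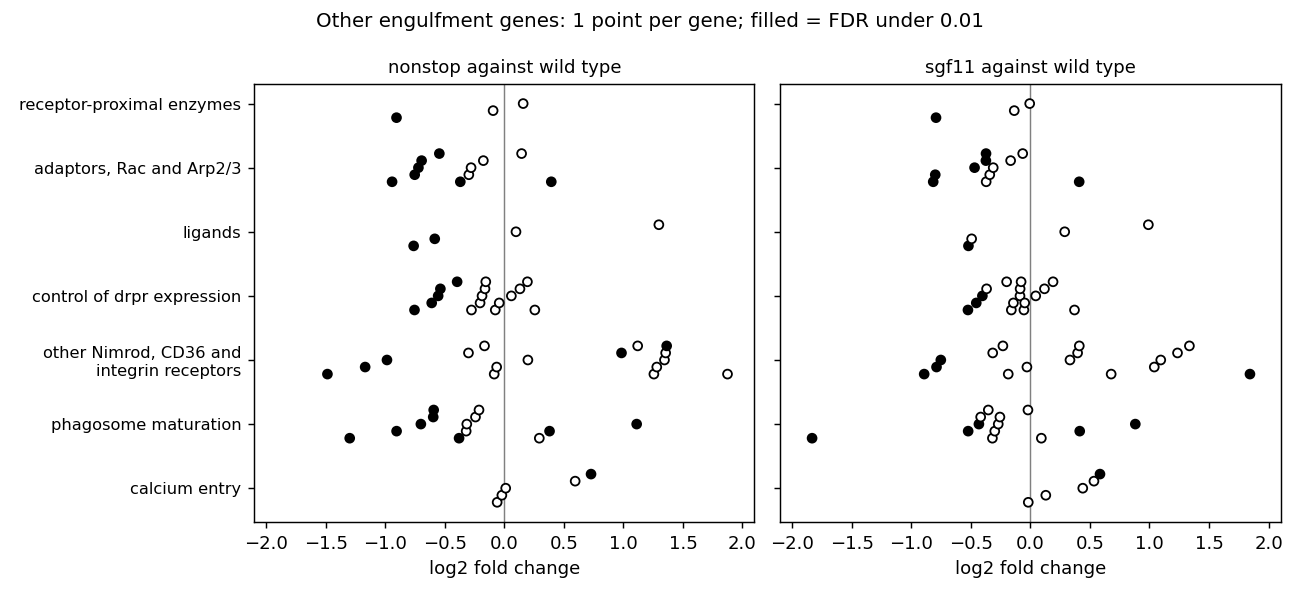
Log2 fold changes (horizontal axis) of the 68 other engulfment genes tested, by role, in *nonstop* and in *sgf11* against wild type, with 1 point per gene and filled points for an FDR under 0.01. Filled points lie mostly below 0, with 23 below and 6 above in *nonstop* and 16 below and 5 above in *sgf11*, and calcium entry genes have none below.

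Among the enzymes at the receptor, the second Src family gene of the fly, *Src64B*, was downregulated in both mutants. It was at 140, 172, 175 and 137 CPM in wild type and between 79.4 and 99.4 CPM in the 8 mutant libraries, without overlap. Its log2 fold changes were -0.90 in *nonstop* (SE 0.10, edgeR FDR = 1.76e-06) and -0.79 in *sgf11* (SE 0.10, FDR = 9.6e-06). *csw*, which encodes the phosphatase that acts on Draper signaling, had log2 fold changes of 0.16 and -0.01, and the Tec kinase gene *Btk* -0.09 and -0.14. Neither was called.

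Of 11 genes that act with Mbc and Ced-12 in actin remodeling, 6 were downregulated in *nonstop*, 5 in *sgf11* and 4 in both, against 17%, 14.1% and 11.8% of all genes. The count in *sgf11* was 3 without wild-type replicate 2, wild-type replicate 3 or *sgf11* replicate 2, and also with TMM factors from abundant genes. *Arp3*, an Arp2/3 subunit gene, had a wild-type level of 146 ± 11.7 CPM (SD, n = 4) and log2 fold changes of -0.94 and -0.82. The Rac GTPase gene *Rac1*, the direct target of Mbc and Ced-12, had a mean of 61.8 CPM in wild-type glia and changed by -0.69 and -0.80. *Cdc42* had -0.75 and -0.47 and *SCAR*, an activator of Arp2/3, -0.54 and -0.37, the latter lost with TMM factors from abundant genes (FDR = 0.0341) and without wild-type replicate 2 or 3 or *sgf11* replicate 1, 2 or 4 (FDR up to 0.0284). The study picked *Rac1* and *Cdc42* from these libraries for qRT-PCR, so their direction is not independent evidence. *Rac2* was called in *nonstop* (-0.72, edgeR FDR = 1.12e-04) and had -0.34 in *sgf11* (FDR = 0.0289). *Crk*, an adaptor that binds Mbc, was the only one of the 11 genes that rose, from 20.6 to 27.1 and 27.3 CPM (log2 fold changes 0.39 and 0.41, edgeR FDR = 0.00633 and 0.00571). Its direction was the same under the 4 scalings, but with library size alone it was not called (FDR = 0.117 and 0.0427). Its calls held in 5 and 6 of the 12 fits that left out 1 library, and both were lost when any wild-type library was left out. The call in *nonstop* was also lost without *nonstop* replicate 2, 3 or 4 (FDR up to 0.0358), and that in *sgf11* without *sgf11* replicate 2 or 4 (FDR up to 0.0245). It lies on chromosome 4, where 47% of the genes tested were upregulated in *nonstop* and 41% in *sgf11*.

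Of 4 tested ligand genes, *CaBP1*, which encodes a calcium binding protein displayed on apoptotic cells, was downregulated in both mutants (-0.76 and -0.52 on the log2 scale, from 224 CPM in wild type). *prtp*, the gene of the Draper ligand Pretaporter, was called in *nonstop* (-0.58, edgeR FDR = 0.00874, or 0.0251 with TMM factors from abundant genes) and had -0.49 in *sgf11* (FDR = 0.0252). Its call held only without *nonstop* replicate 1, *nonstop* replicate 2 or *sgf11* replicate 1, in 3 of the 12 fits that left out 1 library (FDR up to 0.0342). Of 16 tested genes that control *drpr* expression or act beside it, 5 fell in *nonstop* (17% of all genes did), 3 fell in both (against 11.8%) and none rose. Without wild-type replicate 2 or 3, 3 fell in *nonstop*, and without *sgf11* replicate 2, 1 rose in *sgf11*. With TMM factors from abundant genes, 3 fell in *nonstop*, 1 fell in both and 1 (*Traf4*) rose in *sgf11*. Those that fell in both under the scaling by all tested genes were the JNK gene *bsk* (-0.55 and -0.52), the ecdysone receptor partner gene *usp* (-0.61 and -0.45) and *Akt* (-0.54 and -0.40), where the calls of *usp* (FDR = 0.033) and *Akt* (FDR = 0.0111) in *sgf11* were lost with TMM factors from abundant genes. The call of *usp* in *sgf11* held in 4 of the 12 fits that left out 1 library, and was lost without wild-type replicate 1, 2 or 3, *nonstop* replicate 1, 2 or 4 or *sgf11* replicate 1 or 4 (FDR up to 0.0331). *Stat92E*, the STAT factor that raises *drpr* after axon injury in adult flies, was at 161 CPM in wild type and had log2 fold changes of -0.08 and -0.09. *EcR*, the ecdysone receptor gene, had 0.06 and -0.05. Neither was called.

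Other receptors were examined by family. Besides *crq*, 5 of the genes listed here for the CD36 family were tested, and 3 of them fell in both mutants, against 11.8% of all genes tested. The list does not claim to hold the whole family. *dsb* (debris buster), which epidermal cells need to degrade engulfed dendrites, had the lowest fold change in *nonstop* among the listed CD36 genes tested. It was at 50.8, 49.9, 38.8 and 42.3 CPM in wild type, at 18.3, 14.2, 17.2 and 15.3 CPM in *nonstop* and at 25.5, 28.0, 24.03 and 27.8 CPM in *sgf11*. No libraries of different genotypes overlapped. Its log2 fold changes were -1.48 (SE 0.12, edgeR FDR = 3.66e-08) and -0.79 (SE 0.12, FDR = 3.8e-05), and it was the only one of the 68 other engulfment genes called between the mutants (-0.70, SE 0.12, FDR = 0.00216), against 2.11% of all genes tested. *santa-maria*, a carotenoid uptake receptor of the visual pigment pathway, had -1.17 and -0.89, and *pes*, a scavenger receptor gene, had -0.98 and -0.75. *emp* (-0.06 and -0.23) and *Snmp1* (0.20 and 0.41) were not called.

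Of the Nimrod genes other than *drpr*, none of those tested was called as downregulated. For some of them a fall could hardly have been called. The wild-type means of *NimB3* (0.678 CPM), *NimB5* (0.793 CPM), *NimC1* (0.738 CPM) and *NimC2* (0.605 CPM) were below the 1 CPM of the filter. These genes passed the filter with higher means in the mutants. *NimA* was abundant, at 456, 599, 631 and 395 CPM in wild type, and did not separate by genotype (log2 fold changes -0.17 and -0.03, not called). *NimB2*, which encodes a secreted Nimrod protein, rose from 2.39 CPM to 6.01 CPM in *nonstop* and 8.58 CPM in *sgf11*, although 1 *nonstop* library overlapped wild type (log2 fold changes 1.36 and 1.84, edgeR FDR = 8.06e-04 and 5.39e-05). *NimB1* was called in *nonstop* (0.98, FDR = 0.00356, or 0.0154 with library size alone) and had 0.68 in *sgf11* (FDR = 0.0392). Its call was lost without wild-type replicate 1, *nonstop* replicate 1 or *nonstop* replicate 4 (FDR up to 0.0154). The macrophage receptor genes *NimC1* and *eater* were at 0.738 and 2.85 CPM in wild type and were not called.

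Of 13 tested genes of phagosome maturation, 6 were downregulated and 2 upregulated in *nonstop*, and 3 and 2 in *sgf11*, against 17%, 18.7%, 14.1% and 16.4% of all genes. The 3 that fell in *sgf11* also fell in *nonstop*. This count of 3 became 6 by DESeq2 and with no filter, 5 with library size alone and without *nonstop* replicate 3, and 2 with TMM factors from abundant genes and without wild-type replicate 2, *sgf11* replicate 3 or *sgf11* replicate 4. The 3 genes were *DNaseII*, *CtsB* and *Rab7*. *DNaseII*, the lysosomal nuclease gene, was at 51.3, 48.7, 49.1 and 40.1 CPM in wild type, at 19.4, 27.6, 13.9 and 16.4 CPM in *nonstop* and at 12.4, 12.4, 17.6 and 10.99 CPM in *sgf11*, with log2 fold changes of -1.30 (SE 0.18, edgeR FDR = 1.29e-05) and -1.83 (SE 0.18, FDR = 5.73e-07). The mutant libraries were far below wild type. The protease gene *CtsB* had -0.90 and -0.43 (the latter not called with TMM factors from abundant genes, FDR = 0.0111, nor without wild-type replicate 2, *sgf11* replicate 3 or *sgf11* replicate 4, FDR up to 0.0123), and *Rab7*, of late endosomes, -0.59 and -0.52. *lt*, a gene of the HOPS tethering complex, rose from 73.2 CPM to 158 CPM in *nonstop* and 135 CPM in *sgf11* (log2 fold changes 1.11 and 0.88). *Lamp1*, of the lysosomal membrane, also rose (0.38 and 0.41), but was not called with library size alone (FDR = 0.0632 and 0.013), nor in *nonstop* without *nonstop* replicate 1 or 2 or in *sgf11* without *sgf11* replicate 2 or 3. Among 5 genes of calcium entry, which engulfment by fly macrophages requires, the IP3 receptor gene *Itpr* rose in both (0.73 and 0.58), and *Stim*, *Orai*, *RyR* and *jp* were not called.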

How the data were processed

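RNA-seq of nuclear RNA was used from 12 libraries. The deposited files hold raw read counts per gene, for which the authors cleaned paired reads with Trimmomatic 0.32, aligned them to BDGP5 with TopHat2 2.0.13 and Bowtie2 2.2.4, and counted with HTSeq 0.6.1 in union mode without regard to strand. Entries that name no gene (96.1 to 96.7% of all counts, mostly alignments that are not unique) were left out. The deposited edgeR tables hold the authors' own fold changes and p-values and were not used. Genotypes come from the sample titles.

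The tests used edgeR 4.0.16 and DESeq2 1.42.0 (R 4.3.3). Python 3.11.15 served for summaries and matplotlib 3.10.9 for plots. Genes with over 1 CPM in at least 4 libraries were kept and normalized by TMM. All libraries entered 1 quasi-likelihood fit, with Benjamini-Hochberg adjustment over the 9966 genes tested and an FDR threshold of 0.01. Intervals and SE are those of the fit. Exon lengths for FPKM, symbols and positions were taken from a BDGP6 annotation, while reads were counted on BDGP5. *Btk* and *rumpel* were matched through a synonym. In counts simulated for the 9966 genes, 100 genes drawn at random at any level were changed 2-fold and 100 were changed 4-fold. The test found 72% of 2-fold changes in the *nonstop* comparison and 71% in the *sgf11* comparison, with 1 and 2 false calls. Replicates are biological replicates by the study's methods.

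The tests of members and lists and the counts of all genes called were repeated with other scalings (RLE, library size alone, TMM factors from abundant genes), other tests (DESeq2, the exact test of edgeR), no filter, abundant genes only, 2 groups per fit, the replicate number as a block, and each library left out. An FDR of 0.05 was tried for the counts of all genes only. Levels, ratios and likeness were computed once. The members and lists were chosen with earlier results of these data known. All members are described, with at most 4 genes of each other list by mean absolute log2 fold change among those called in both mutants, listed genes called between the mutants and the 5 genes most like *drpr*. Other genes were named after their values were seen.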

Additional observations from a re-analysis of the deposited data

Results flagged for a closer look

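Among the 21 groups of 4 libraries formed by the 7 members and 3 genotypes, 2 held a library far from the others, both for *NimC4*. *nonstop* replicate 1 was at 0.489 CPM (4 counts) and *sgf11* replicate 4 at 0.646 CPM (5 counts). By chance, about 1 in 20 groups of normally distributed values holds such a library. Counts near 0, as for *NimC4*, are not of this kind, so that rate does not apply to these 2 groups. *dsb*, a CD36 family gene, differed between the mutants by -0.70 on the log2 scale (SE 0.12, edgeR FDR = 0.00216) and was lower in *nonstop* in 4 of 4 libraries.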

How the results depend on the processing

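*Ced-12* and *crq* kept their direction and their calls in both mutants under all alternatives run. Over the fits that left out 1 library, the log2 fold change of *Ced-12* ranged from -1.14 to -0.97 in *nonstop* and from -0.99 to -0.88 in *sgf11*, and that of *crq* from -0.98 to -0.82 and from -0.73 to -0.58. *drpr* in *sgf11*, which was not called, turned to 0.0536 with TMM factors from abundant genes and with tests limited to those genes, and ranged from -0.13 to 0.0147 over the fits that left out 1 library (0.0147 without wild-type replicate 3 and 0.0034 without *sgf11* replicate 4). *Ced-12* between the mutants ranged from -0.20 to 0.0059 over those fits (0.0059 without *nonstop* replicate 3). The causes were not tested. With library size alone, *ced-6* (FDR = 0.00648) and *Shark* (FDR = 0.00862) were also called in *nonstop*. *Shark* was not among the genes of the limited tests. Limited to abundant genes, 1740 genes were called in *nonstop* against 3561, and 1565 in *sgf11* against 3037, with fewer genes tested. Between the mutants, 210 genes were called, 386 at an FDR of 0.05, 343 by the exact test, 335 by DESeq2, 100 among abundant genes and 136 to 221 with 1 library left out (136 without *nonstop* replicate 4). Of the 6 members none was called between the mutants by edgeR's quasi-likelihood test, by its exact test or by DESeq2, and 1 (*drpr*) had an unadjusted p under 0.05 in the quasi-likelihood test. The replicate numbers only name libraries, since deviations of libraries with the same number correlated between -0.0764 and 0.122. With the number as a block, 3465, 3025 and 183 genes were called in the 3 comparisons, and no call of a member changed. Depth limits *NimC4*, with at most 5 counts per library. Simulated 2-fold changes were found in 72% and 71% of cases, and smaller ones were not simulated. The changed genes were drawn at random from all genes tested and were far fewer than the genes called here. These rates therefore do not describe the members at their own levels.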

Other observations

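Some libraries were low for most of the tested members within their genotype. *nonstop* replicate 3 was the lowest *nonstop* library for 5 of the 6 genes, with a summed level of 620 CPM against 689 to 831 CPM in the others. *sgf11* replicate 4 was the lowest *sgf11* library for 5 of the 6 genes, with 749 CPM against 800 to 902 CPM. How many of all genes tested were lowest in these libraries is not given here, so this is not shown to be particular to the members. *NimA* (317 and 380 CPM) and *DNaseII* (13.9 and 10.99 CPM) were also lowest there within their genotype, while *Crk* was highest there (31.1 and 31.2 CPM). The same libraries had the highest *Hml* level of their genotype, at 55.0 and 94.9 CPM. The hemocyte markers *He* and *NimC1*, both with few counts, followed this in *sgf11* only, with their highest levels in replicate 4 (0.905 and 1.68 CPM). In *nonstop* both were highest in replicate 4 (1.87 and 7.05 CPM), and *NimC1* was lowest in replicate 3 (0.688 CPM). The other hemocyte markers listed were not compared library by library. A link between *Hml* and the engulfment genes was not tested. In wild type, the highest *Hml* level was in replicate 3 (33.7 CPM), which had the highest summed level of the 6 genes (1090 CPM).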
